A study of Homo sapiens with 6 samples.

Results

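Ribosome biogenesis factors are the proteins that make ribosomes without staying in them, and 42 genes for such factors were followed among the 58735 genes listed for U937, a human myeloid cell line. They were chosen by gene symbol and sorted by role into 15 factors of the small subunit, 13 of the large subunit, 9 of the small nucleolar ribonucleoproteins (snoRNPs), 2 subunits of RNA polymerase I and 3 nucleolar proteins that act at several steps. All 42 symbols matched 1 gene each. Messenger RNA was sequenced from 3 control libraries, whose genotype is labelled NC, and 3 libraries of cells overexpressing BCL6B, labelled oeBCL6B. BCL6B is a zinc finger protein related to the repressor BCL6, and the study asks what it does in acute myeloid leukaemia cells. The series names lentiviral overexpression in leukaemia lines. What the control cells carried, the time after transduction and the number of clones were not given in the sources used here. All libraries come from the same cell line, carry the same batch label and are classed by the labels as an acute promyelocytic leukaemia cell. Nothing says that replicates were separate cultures, so p-values measure the spread between libraries, which may be technical.

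Ribosomes are assembled in the nucleolus, where RNA polymerase I transcribes a long precursor that holds the small-subunit RNA and most of the large-subunit RNA. snoRNPs modify this precursor, box C/D particles by methylation and H/ACA particles by pseudouridylation, while large protein assemblies fold and cut it into a pre-40S and a pre-60S particle. These factors are abundant in dividing cells, and many of their genes are known targets of the transcription factor MYC.

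Levels are given in FPKM, which divides a gene's fragments by its length and by library size. Reads in listed genes numbered 16481014 to 17627289 in the controls and 17095256 to 18870186 with overexpression. BCL6B had 0 reads in every control and 1215, 1229 and 1712 reads in overexpression replicates 1 to 3, as the labels say. The mitochondrial genome gave 4.17% to 4.44% of the control reads and 4.49% to 4.97% of those under overexpression. The myeloid identity was checked with 12 markers, of which SPI1 stood at 85.8 and MPO at 2025 FPKM in controls while CD14 and CD68 were below the filter, at 0.0800 and 0.00878 FPKM in controls. ELANE, CSF1R and ITGAM were also low in controls, at 0.462, 1.14 and 2.92 FPKM. PTPRC, CD33, LYZ, FCGR1A and CD4 stood between 10.8 and 32.9 FPKM. Summed over the myeloid markers the level was 2151 to 2304 FPKM in controls and 1747 to 1932 FPKM with overexpression, and MPO made up most of both sums. Of the 10 tested myeloid markers PTPRC, CD33, LYZ and MPO fell, 5 had a log2 change above 0, and SPI1 and CSF1R lay wholly above the controls without passing. MPO lost its call in each of the 6 leave-one-out fits, and PTPRC in those without control replicate 1 or 3 or overexpression replicate 2 or 3, at adjusted p up to 0.123 and 0.114. Markers of other cell types were low, with summed levels in controls and overexpression of 3.46 to 4.64 and 5.14 to 6.77 FPKM for 6 T and NK genes, 6.81 to 7.74 and 7.02 to 7.90 FPKM for 5 B cell genes, 0.559 to 0.880 and 1.20 to 1.70 FPKM for 5 erythroid and platelet genes, and 7.91 to 8.83 and 8.67 to 10.2 FPKM for 6 stromal, endothelial and epithelial genes. Among these genes NCAM1 rose from 0.306 to 0.905 FPKM (limma adjusted p = 0.0142, up to 0.0582 without overexpression replicate 2) and ITGA2B from 0.705 to 1.503 FPKM (limma adjusted p = 0.0245). ITGA2B lost its call without control replicate 1 or 3 or overexpression replicate 2 or 3, at adjusted p up to 0.0829. EPCAM stood at 5.76 and CD3D at 3.80 FPKM in controls, above the myeloid genes ELANE, CSF1R and ITGAM. PAX5, HBA1, HBB, PF4 and CDH5 were at 0 FPKM in both group means. The part of these shifts in the results was not tested, and in bulk RNA fewer cells of a type and less RNA per cell cannot be told apart.

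With BCL6B overexpression, 25 of the 41 tested ribosome biogenesis genes fell and 0 rose (limma on log2(FPKM + 1), Benjamini-Hochberg adjusted p under 0.05 over 14662 genes). Across all tested genes 18.3% changed, of which those that fell made up 10.1% of the tested genes and those that rose 8.18%, and among 7171 tested protein-coding genes within the range of the members' control levels 15.8% fell. The median log2 change was -0.28 over the 41 genes and -0.02 over all tested genes. The genes that fell stood at 60.4% to 83.4% of their control means, from UTP20 to EBNA1BP2, so the shift was broad and modest. Percents of control compare mean FPKM, while log2 changes are of FPKM + 1. The added 1 makes the log2 change smaller than the percent implies for genes at low levels, such as UTP20. Overexpression libraries lay wholly below the controls for 31 of the 41 genes and wholly above for 0, against 22.2% and 17.8% of all tested genes. The share wholly below was 29.9% among the 7171 protein-coding genes in the members' level range. The members share the same 6 libraries and are not independent of each other. The list was chosen with earlier results of these data known, so its counts are a description. Leaving out control replicate 1 left 15 that fell, leaving out control replicate 3 left 14, and leaving out overexpression replicate 2 left 16. Over all 14662 tested genes the same fits left 660, 618 and 697 that fell, against 1488 on all 6 libraries.

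**Figure D1:**
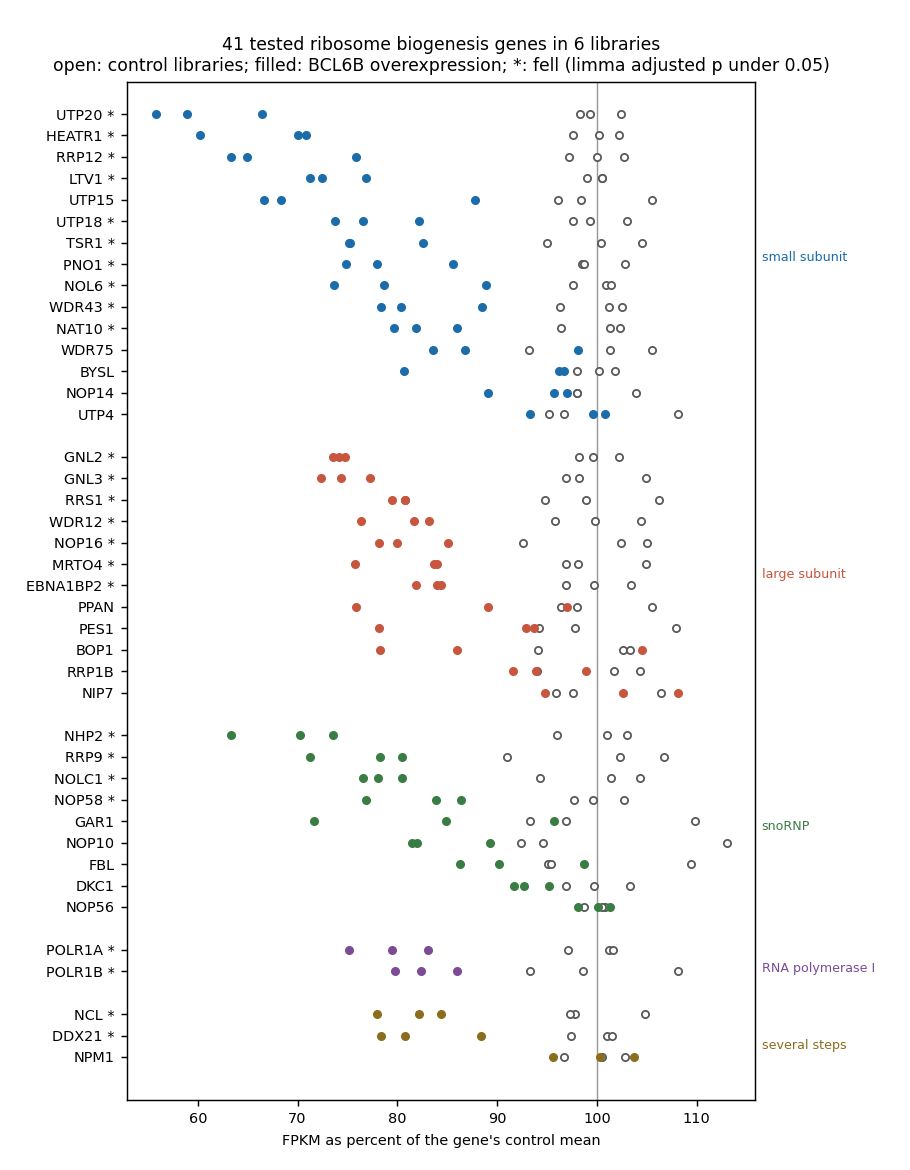
Each row is 1 of the 41 tested genes, grouped by role, and each point is 1 library's FPKM as a percent of that gene's control mean, with open points for the 3 controls and filled points for the 3 overexpression libraries. Asterisks mark the 25 genes that fell (limma adjusted p under 0.05), whose means lay between 60.4% and 83.4% of control.

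Averaged over the 42 genes, the shift was even over the libraries. The mean of log2(FPKM + 1) over the 42 genes was 4.85, 4.90 and 4.86 in control replicates 1 to 3 and 4.61, 4.62 and 4.61 in overexpression replicates 1 to 3. It was less even within roles. In overexpression replicates 1 to 3 the several-steps genes had means of 7.87, 7.82 and 7.75, against 8.00 over the controls. The large-subunit genes had 4.12, 4.15 and 4.19, against 4.37. Control replicate 2 was the highest control for 27 of the 42 genes. Together they made up 1.08% to 1.10% of the control reads and 0.951% to 0.981% of those under overexpression. Across the 41 tested genes the log2 change had a Pearson r of 0.297 and a Spearman rho of 0.203 with the log2 control level, and of -0.0469 and -0.0451 with log10 gene length, as a description of genes that share libraries. Because log2 changes of FPKM + 1 shrink at low levels, the scale also shapes the correlations with level. The median coefficient of variation of FPKM was 4.19% in controls and 5.57% with overexpression, as a description of the replicate spread. The test itself used each gene's variance of log2(FPKM + 1), adjusted by limma with that of all tested genes.

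**Figure D2:**
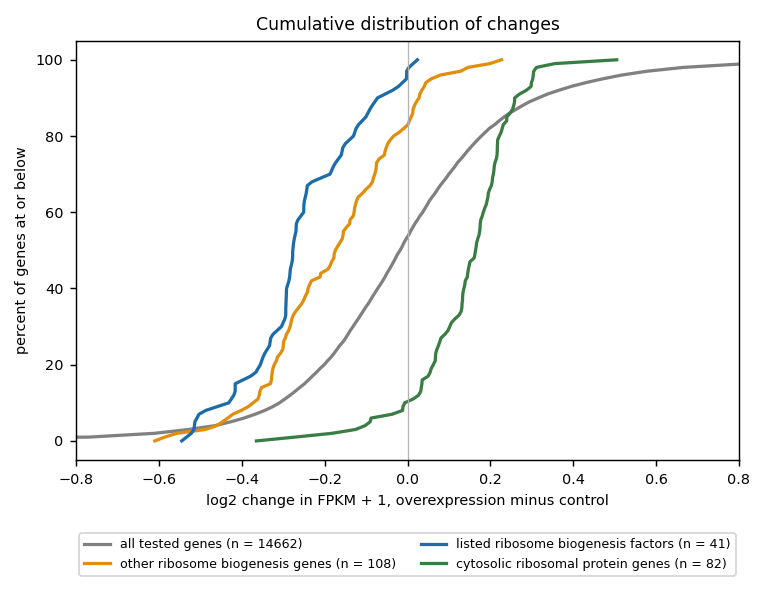
Cumulative percent of genes (vertical axis) at or below a given log2 change in FPKM + 1, overexpression minus control (horizontal axis), for all 14662 tested genes, the 41 tested members, 108 other ribosome biogenesis genes and 82 cytosolic ribosomal protein genes. The medians were -0.02, -0.28, -0.17 and 0.16.

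Among the small-subunit factors 10 of 15 fell, and all 15 had a log2 change below 0. UTP20, a very large protein of the small-subunit processome, the assembly that builds the pre-40S particle on the nascent precursor, showed the largest fall of the 41 tested genes. UTP20 (ENSG00000120800, GRCh38 chromosome 12, 101280109 to 101386616, plus strand) stood at 3.79, 3.75 and 3.90 FPKM in controls and 2.53, 2.13 and 2.25 FPKM with overexpression. Its groups did not overlap, and its mean of 2.30 ± 0.209 against 3.81 ± 0.0814 FPKM (SD, n = 3 each) was 60.4% of control (log2 change -0.55, SE 0.0703, limma adjusted p = 0.00467). HEATR1, the human counterpart of yeast Utp10, which is needed for transcription and cutting of the precursor, was at 7.56, 7.77 and 7.92 FPKM in controls and 5.42, 4.66 and 5.49 FPKM with overexpression. This fall to 67.0% of control (log2 change -0.50, SE 0.0681, limma adjusted p = 0.00544) again left no overlap. HEATR1 shares 23.2% of its exon bases with LGALS8 on the opposite strand, and whether counting used the strand was not stated in the sources, so the split of reads there is uncertain.

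RRP12, which helps carry pre-40S particles out of the nucleus, was at 13.7, 14.1 and 13.4 FPKM in controls and 8.70, 8.92 and 10.4 FPKM with overexpression. It fell to 68.0% of control (log2 change -0.51, SE 0.0714, limma adjusted p = 0.00584), and overexpression replicate 3 was the highest of the lower group. LTV1, a factor bound to late pre-40S particles until their maturation in the cytoplasm, was at 40.1, 40.8 and 40.8 FPKM in controls and 31.2, 29.4 and 28.9 FPKM with overexpression. Its controls lay within 1 FPKM of each other, and it fell to 73.5% of control (log2 change -0.43, SE 0.0443, limma adjusted p = 0.00245). LTV1 (chromosome 6, 143843344 to 143863812, plus strand) shares 27.7% of its exon bases with AL049844.3 on the same strand, which had 0 reads. How reads in both genes were counted was not stated in the sources, so the FPKM of LTV1 may leave some out. UTP18, which in yeast brings an RNA helicase of the nuclear exosome to the processome, was at 28.8, 30.4 and 29.3 FPKM in controls and 24.3, 22.6 and 21.8 FPKM with overexpression. It fell to 77.5% of control (log2 change -0.36, SE 0.0531, limma adjusted p = 0.00733).

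The other small-subunit genes that fell were NAT10, the acetyltransferase that modifies small-subunit RNA, TSR1 and PNO1 of the late pre-40S particle, and WDR43 and NOL6 of the processome. Their means were 77.6% to 82.5% of control, with limma adjusted p of 0.0126 to 0.0322. Each of these 5 lost its call in some fit with 1 library left out, with adjusted p up to 0.0569 for NAT10, 0.0532 for TSR1, 0.0756 for PNO1, 0.0796 for WDR43 and 0.10 for NOL6. For TSR1 that library was control replicate 3, and for NAT10 it was control replicate 3 or overexpression replicate 2. PNO1, WDR43 and NOL6 lost their calls on leaving out any single control or overexpression replicate 2, PNO1 and WDR43 also overexpression replicate 3, and NOL6 also overexpression replicate 1. TSR1 shares 20.7% of its exon bases with SRR on the other strand. UTP15, which is needed for transcription as well as cutting of the precursor, was at 3.60, 3.95 and 3.68 FPKM in controls and 3.29, 2.56 and 2.49 FPKM with overexpression. Its groups did not overlap, and at 74.2% of control it did not pass (limma adjusted p = 0.0517). Its adjusted p was 0.0182 without overexpression replicate 1, 0.107 to 0.145 in the other leave-one-out fits and 0.129 without a filter, and it passed with a mean FPKM of at least 1, after rescaling to TPM, with library weights and with voom. WDR75, BYSL, NOP14 and UTP4 did not pass, at 89.5%, 91.2%, 93.9% and 97.9% of control.

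A 6-base palindrome, CACGTG, the canonical E-box bound by MYC and related factors, was looked for in the 250 bases before the RefSeq start of each gene (GRCh38.p14), where 36 of the 42 genes had a sequence. It was present in 6 of the 36, or 16.7%, in UTP20, UTP18, NAT10, EBNA1BP2, NOP10 and UTP4, against 9.36% of 8514 promoters of tested protein-coding genes. It occurred in 4 of the 21 promoters of genes that fell and in 2 of the 14 of tested genes that did not pass. The 7 bases CCGGAAG, a core of ETS family sites, were present on either strand in 33.3% of the 36 promoters and 17.8% of those of tested genes. They occurred in 7 of the 21 promoters of genes that fell and in 5 of the 14 promoters of tested genes that did not pass. TTCCTAG, a core of the known BCL6-type site, was present on either strand in 1 of the 36 and in 2.71% of those of tested genes. No pair of these motifs can overlap, a match is a description and not a site of binding, and the motifs were chosen with the results known. For the named members whose E-box lies outside annotated exons, the surrounding bases are shown because UTP20 and UTP18 fell and NOP10 did not pass. Capitals mark the E-box and each sequence reads 5′ to 3′ on the strand of the gene.
UTP20, chr12:101280035-101280104, plus strand, ending at the RefSeq start: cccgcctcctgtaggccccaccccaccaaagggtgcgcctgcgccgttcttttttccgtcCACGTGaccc
UTP18, chr17:51260397-51260522, plus strand: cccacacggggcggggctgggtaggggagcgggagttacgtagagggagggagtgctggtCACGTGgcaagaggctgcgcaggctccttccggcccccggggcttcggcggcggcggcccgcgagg
NOP10, chr15:34343241-34343314, minus strand: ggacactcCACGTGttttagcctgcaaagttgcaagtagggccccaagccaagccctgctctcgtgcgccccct
The E-box begins 10 bases before the start in UTP20, 89 bases before it in UTP18 and 170 bases before it in NOP10, whose second copy begins 11 bases before the start.

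Among the large-subunit factors 7 of 12 tested genes fell. GNL2, a GTPase of the pre-60S particle known in yeast as Nog2, had the smallest adjusted p of all 41 genes. GNL2 (ENSG00000134697, chromosome 1, 37566816 to 37595935, minus strand) was at 32.7, 33.5 and 32.2 FPKM in controls and 24.1, 24.3 and 24.5 FPKM with overexpression. Both groups were tight, and it fell to 74.2% of control (log2 change -0.42, SE 0.0394, limma adjusted p = 0.0018). GNL3, which encodes nucleostemin, a nucleolar GTPase abundant in stem and cancer cells, was at 99.9, 107 and 98.6 FPKM in controls and 78.7, 75.7 and 73.6 FPKM with overexpression. It fell to 74.7% of control (log2 change -0.42, SE 0.0499, limma adjusted p = 0.00388) with no overlap. RRS1, which in yeast helps to place the 5S RNA in the pre-60S particle, was at 31.4, 35.2 and 32.8 FPKM in controls and 26.3, 26.7 and 26.7 FPKM with overexpression. It fell to 80.3% of control (log2 change -0.30, SE 0.0514, limma adjusted p = 0.0105).

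EBNA1BP2, the counterpart of yeast Ebp2, which works with Rrs1, was at 25.7, 26.6 and 25.0 FPKM in controls and 21.6, 21.1 and 21.7 FPKM with overexpression. It fell to 83.4% of control (log2 change -0.25, SE 0.0437, limma adjusted p = 0.0116) and lost its call without control replicate 1 or overexpression replicate 2, at adjusted p up to 0.0506. MRTO4, which holds the place of the stalk protein P0 on the pre-60S particle, was at 37.4, 40.5 and 37.9 FPKM in controls and 29.2, 32.3 and 32.4 FPKM with overexpression. It fell to 81.1% of control (log2 change -0.29, SE 0.0576, limma adjusted p = 0.0168, 0.0549 without control replicate 3). WDR12 and NOP16 fell to 80.4% and 81.1% of control, with limma adjusted p of 0.0172 and 0.0229. WDR12 lost its call without control replicate 3 or overexpression replicate 2, at adjusted p up to 0.0689. NOP16 lost its call when control replicate 1 or 2, or overexpression replicate 1 or 3, was left out, at up to 0.0832, and its transcripts overlap those of HIGD2A on the other strand. PPAN, PES1, BOP1 and RRP1B did not pass, at 87.3%, 88.3%, 89.6% and 94.8% of control, and BOP1 had an adjusted p of 0.318 that was 0.0495 without overexpression replicate 3. PPAN shares 56.0% of its exon bases with the readthrough gene PPAN-P2RY11, which had 2 reads over the 6 libraries. How reads in both genes were counted was not stated in the sources, so the level of PPAN is uncertain. NIP7 was the only tested gene above its control mean, at 102%, and shares 20.2% of its exon bases with COG8 on the other strand.

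NOP2, a methyltransferase of large-subunit RNA, was the member that was not tested. NOP2 (chromosome 12, 6556863 to 6568691, minus strand) was at 0.348, 0.199 and 0.381 FPKM in controls and 0.295, 0.299 and 0.234 FPKM with overexpression, and had 17 to 31 reads per library. The groups overlapped, and every value was below the filter of 0.5 FPKM. Of its exon bases 54.4% lie within AC006064.6, a gene annotated on the same strand that had 0 reads. How reads that fall in both genes were counted was not stated in the sources, so the level of NOP2 is uncertain.

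**Figure D3:**
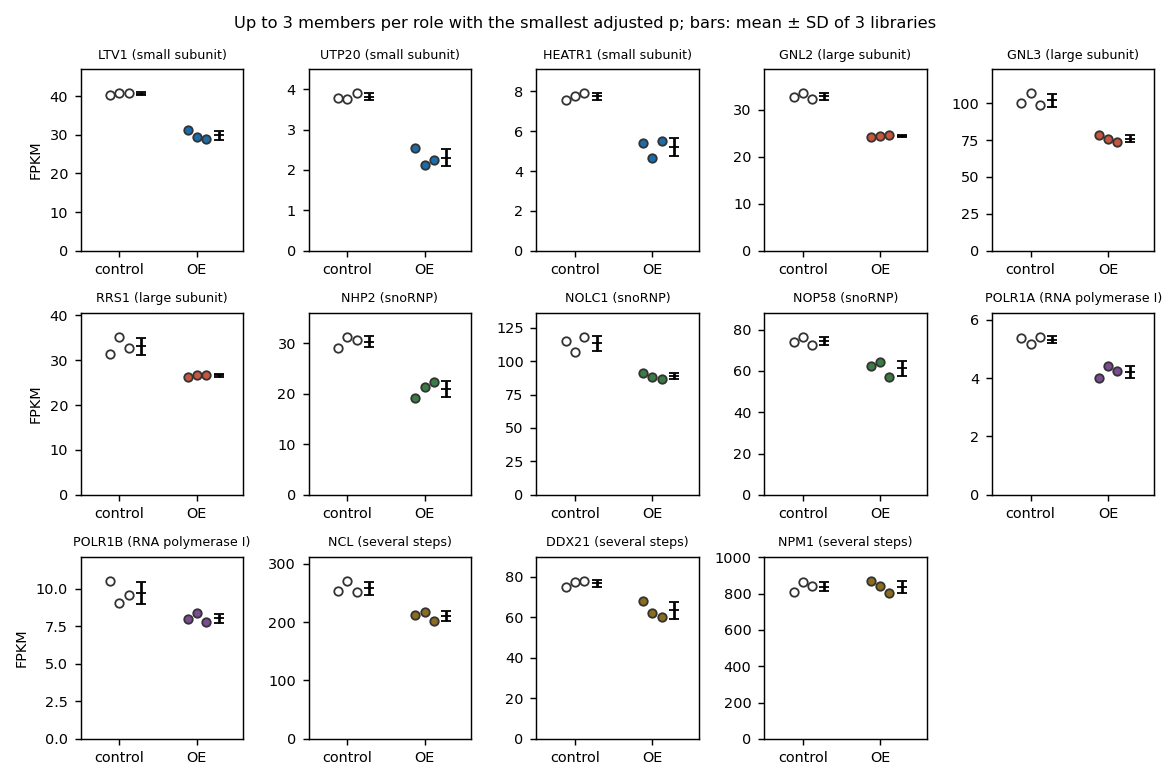
FPKM on linear axes from 0 for up to 3 members per role with the smallest adjusted p, with 1 point per library and the mean ± SD of 3 libraries beside each group. In 13 of the 14 panels the 3 overexpression libraries (OE) lie below all controls, and in the NPM1 panel the groups overlap.

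Among the 9 snoRNP genes 4 fell. NHP2, a core protein of H/ACA particles, was at 29.1, 31.2 and 30.6 FPKM in controls and 19.2, 21.3 and 22.3 FPKM with overexpression. It fell to 69.0% of control (log2 change -0.52, SE 0.0638, limma adjusted p = 0.00414), and it shares 27.4% of its exon bases with RMND5B on the other strand. NOLC1, which encodes the snoRNP chaperone Nopp140, was at 115, 107 and 118 FPKM in controls and 91.1, 88.4 and 86.7 FPKM with overexpression. It fell to 78.4% of control (log2 change -0.35, SE 0.0516, limma adjusted p = 0.00717) with no overlap. RRP9, a protein of the U3 particle that guides the first cuts of the small-subunit precursor, was at 34.1, 35.5 and 30.3 FPKM in controls and 23.7, 26.1 and 26.8 FPKM with overexpression. It fell to 76.7% of control (log2 change -0.37, SE 0.0737, limma adjusted p = 0.0177) and lost its call when control replicate 1 or 2, or overexpression replicate 2, was left out (adjusted p up to 0.0664).

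NOP58, a core protein of box C/D particles, was at 74.1, 76.4 and 72.7 FPKM in controls and 62.4, 64.3 and 57.2 FPKM with overexpression. It fell to 82.4% of control (log2 change -0.28, SE 0.0547, limma adjusted p = 0.0172) and lost its call without any 1 of the controls, at adjusted p up to 0.0619. NOP10, a small H/ACA protein, was at 250.5, 299 and 245 FPKM in controls and 217, 237 and 216 FPKM with overexpression. Its groups did not overlap, and it did not pass (84.3% of control, log2 change -0.24, SE 0.0863, limma adjusted p = 0.0986). With 1 library left out the adjusted p was 0.113 to 0.208, while on all 6 libraries NOP10 passed after quantile normalization, after rescaling to TPM, with the replicate number as a block and with voom. GAR1, FBL, which encodes the box C/D methyltransferase fibrillarin, and DKC1, the H/ACA pseudouridine synthase, did not pass, at 84.1%, 91.7% and 93.2% of control. NOP56, the box C/D partner of NOP58, was at 91.6, 91.3 and 89.7 FPKM in controls and 90.9, 92.1 and 89.1 FPKM with overexpression. These values overlapped, and the 95% interval of its log2 change was -0.0941 to 0.0889.

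The ratio between partners was also taken within each library. NHP2 over DKC1 was 0.285, 0.295 and 0.309 in controls and 0.202, 0.219 and 0.238 with overexpression. NOP58 over NOP56 was 0.809, 0.837 and 0.811 in controls and 0.687, 0.698 and 0.642 with overexpression. HEATR1 over UTP4, both of the early UTP-A assembly that joins the precursor during transcription, was 0.469, 0.424 and 0.483 in controls and 0.321, 0.273 and 0.347 with overexpression. The groups did not overlap for these pairs, nor for LTV1 over BYSL, at 2.06 to 2.10 in controls and 1.53 to 1.98 with overexpression. They did overlap for WDR12 over PES1, partners in the PeBoW complex that with BOP1 acts on the large-subunit precursor, at 0.272 to 0.325 in controls and 0.240 to 0.313 with overexpression. NOP58 over FBL, also of the box C/D core, overlapped as well, at 0.588 to 0.656 in controls against 0.534 to 0.609. These pairs were picked after their values were seen, so the ratios are a description with no test.

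**Figure D4:**
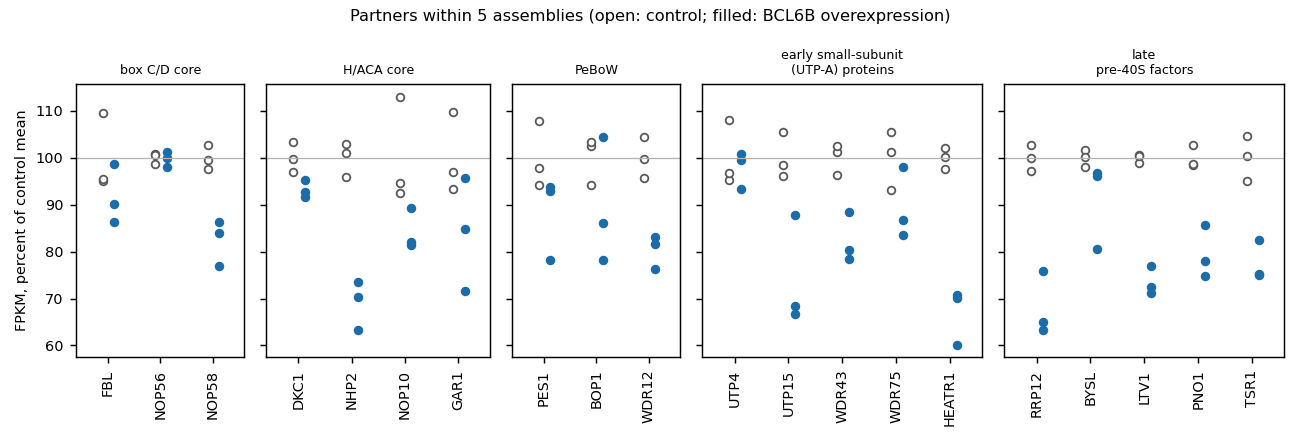
FPKM of each library as a percent of the gene's control mean (vertical axis) for the members of 5 assemblies, open points for controls and filled points for overexpression. In the H/ACA core NHP2 lies at 63.3% to 73.5% with overexpression and DKC1 at 91.7% to 95.2%, and in the box C/D core NOP58 lies at 76.9% to 86.4% and NOP56 at 98.1% to 101.3%.

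Both RNA polymerase I subunits on the list fell. Of 13 other genes sorted to the RNA polymerase I role 2 fell, TAF1D and RRN3, and neither encodes a subunit of the polymerase. POLR1A, the largest subunit, was at 5.39, 5.17 and 5.41 FPKM in controls and 4.0, 4.42 and 4.23 FPKM with overexpression. It fell to 79.2% of control (log2 change -0.28, SE 0.0578, limma adjusted p = 0.0203) and lost its call without control replicate 1 or 3, at adjusted p up to 0.0768. POLR1B, which forms the active centre with POLR1A, was at 10.5, 9.07 and 9.59 FPKM in controls and 8.01, 8.36 and 7.76 FPKM with overexpression. It fell to 82.7% of control (log2 change -0.24, SE 0.0645, limma adjusted p = 0.0422), and this call held in 1 of the 6 leave-one-out fits, that lacking control replicate 2, with an adjusted p up to 0.125 in the others. On all 6 libraries POLR1B also lost its call without a filter, after quantile normalization, after rescaling to TPM, without a mean-variance trend, with the replicate number as a block and with the length trend removed, at adjusted p of 0.0502 to 0.0867.

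Of the 3 nucleolar proteins with several roles 2 fell. NCL, which encodes nucleolin, a major nucleolar protein that binds the precursor RNA, was at 253, 271 and 251 FPKM in controls and 212, 218 and 201 FPKM with overexpression. It fell to 81.5% of control (log2 change -0.29, SE 0.0538, limma adjusted p = 0.0135) and passed in every leave-one-out fit. DDX21, an RNA helicase of the nucleolus, was at 74.9, 77.6 and 78.0 FPKM in controls and 67.9, 62.1 and 60.2 FPKM with overexpression. It fell to 82.5% of control (log2 change -0.27, SE 0.0551, limma adjusted p = 0.018) and lost its call when any single control or overexpression replicate 2 was left out (adjusted p up to 0.0719). NPM1, the nucleolar chaperone nucleophosmin and the most abundant member, was at 811, 863 and 843 FPKM in controls and 871, 842 and 802 FPKM with overexpression. Its groups overlapped, its mean was 99.9% of control, and the 95% interval of its log2 change was -0.140 to 0.136. NPM1P27, a processed pseudogene with 98.2% identity over 834 bases, took 1.08% as many reads as NPM1. NIP7, NOP56, NPM1 and UTP4 stood so near their control means that the sign of the change turned under some scalings or without 1 library.

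Several members also carry small nucleolar RNAs, the guides of the snoRNPs, in their own genes. By GENCODE 29, whose coordinates match the deposited ones for all 58735 genes, 8 of the 42 genes (19.1%) contain at least 1 such RNA gene on the same strand, against 1.83% of 10628 tested protein-coding genes. Together they hold 27 annotated small nucleolar RNA genes. In GNL3 an RF00569 entry and RF01183 cover nearly the same bases, so the 27 are annotations and not all distinct RNAs. GNL3 holds 6, NOP56 5, NOP58 4, NCL and WDR43 3 each, and DKC1, PPAN and TSR1 2 each. Of these 8 hosts 5 fell and 3 did not pass. This is near the share of all tested members that fell, 61.0%, beside 10.1% of all tested genes.

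For the other genes of the pathway, 109 further ribosome biogenesis genes were sorted by the same roles. Of 108 tested, 40 fell and 1 rose, and the median log2 change was -0.17. By role, 15 of 40 small-subunit genes fell and 1 rose, 19 of 45 large-subunit genes fell, 4 of 10 snoRNP genes fell and 2 of 13 RNA polymerase I genes fell. These are 37.5%, 42.2%, 40% and 15.4%, beside 10.1% of all tested genes and 15.8% of the protein-coding genes in the members' level range. As sorted here, the RNA polymerase I share was near the background, and 4 of its 13 genes had a log2 change above 0. TCOF1, which fell, was sorted with the snoRNP genes though it also acts in precursor transcription, so both shares depend on the sorting. The number of these further pathway genes that fell was 23, 25 and 21 without control replicate 1, 2 and 3, and 24 without overexpression replicate 2. Over all tested genes the same fits left 660, 903, 618 and 697 that fell, against 1488 on all libraries. PWP2, the gene not tested, had 4 to 9 reads per library. How reads that match more than 1 gene were counted was not stated in the sources, so its level is uncertain too.

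CEBPZ, a large-subunit factor known in yeast as Noc1, fell from 20.1 ± 0.928 to 12.8 ± 0.0633 FPKM (SD, n = 3 each), which is 63.7% of control (limma adjusted p = 0.000919). DDX51, a helicase of the large-subunit pathway, fell to 64.5% of control (limma adjusted p = 0.000919). In the small-subunit group UTP14A fell from 23.0 ± 0.441 to 16.05 ± 0.398 FPKM and the helicase gene DDX10 from 15.7 ± 0.729 to 10.3 ± 0.411 FPKM (SD, n = 3 each, limma adjusted p = 0.0013 and 0.00193). UTP11 was the gene that rose, from 20.0 ± 0.686 to 23.6 ± 1.19 FPKM (limma adjusted p = 0.0292). It lost this call when any single control or overexpression replicate 1 or 2 was left out, at adjusted p up to 0.106, and also without a filter, after rescaling to TPM and without a mean-variance trend. NUFIP1 and TCOF1, which act in snoRNP assembly and in precursor transcription, fell to 75.6% and 80.2% of control. TAF1D, a subunit of the RNA polymerase I selectivity factor, and RRN3, the initiation factor that joins the polymerase to it, fell to 78.0% and 80.5% of control. Both TCOF1 and RRN3 lost their calls when control replicate 1 or 3 or overexpression replicate 2 was left out, and RRN3 also without overexpression replicate 3, at adjusted p up to 0.0576 and 0.0747.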

How the data were processed

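RNA was selected with oligo(dT) beads and made into dUTP-marked libraries, per the labels' protocols. Per the file headers, the authors deposited FPKM for each gene in each library, beside gene lengths. The submitters' processing notes name cutadapt 1.9 and GRCh38. The aligner, counter and strand setting were not given in the sources used here. FPKM times length gave whole reads for 100% of 139702 values above 0, within 0.01. Genes with at least 0.5 FPKM in at least 3 libraries were compared on the log2(FPKM + 1) scale by limma 3.58.1 (R 4.3.3), two-sided, allowing a mean-variance trend and using no block. P-values were Benjamini-Hochberg adjusted over every tested gene, with a threshold of 0.05. Near-identical transcripts were sought with BLAST+ 2.17.0 at 98% identity over 200 bases, and shared exons in GENCODE 29. Full values are given for the 5 members of each role with the lowest adjusted p, or all where a role has fewer, for both polymerase subunits and, more briefly, for 2 other pathway genes per role and any that rose. BCL6B was added as a check, and other members are named with fewer values. The members and lists were chosen with earlier results of these data known. Depth limits counting error only.

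Deviations from the group means had correlations of 0.0511, 0.110 and -0.00189 between same-numbered libraries, and of -0.0909 to 0.0386 between different-numbered ones. No label says that equal numbers mark a shared culture, so the numbers were not treated as pairs.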

Additional observations from a re-analysis of the deposited data

How the results depend on the processing

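The number of listed ribosome biogenesis genes that fell was 20 to 28 under the other pseudocounts, filters, scalings, variance models, voom on recovered reads and removal of the length trend, and 14 to 23 when 1 library was left out. It was 9 at an adjusted p of 0.01. No listed gene rose under any alternative run. The median log2 change was -0.246 after quantile normalization and -0.313 after TPM rescaling, and -0.283 to -0.260 when 1 library was left out. Of the 25 genes that fell, 11 passed under every alternative run, 14 lost the call in at least 1 leave-one-out fit and 5 in a fit on all 6 libraries. The replicate number as a block gave 25 genes that fell, lost POLR1B and gained NOP10.

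Changed genes in all numbered 1588 without a filter, 807 and 4054 at adjusted p of 0.01 and 0.1, and 1222 to 2272 when 1 library was left out. Of the further pathway genes 16 fell at 0.01, and 21 to 39 when 1 library was left out. Those that rose numbered 0 without a filter, after TPM rescaling, without a trend and at 0.01, then 3 after quantile normalization and with library weights, 2 with voom and without the length trend, 4 at 0.1, and 0 to 2 when 1 library was left out.

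Signs turned for genes near 0. UTP4 was at 0.00214 after quantile normalization and 0.00976 with library weights, and -0.0596 to 0.0272 when 1 library was left out. NIP7 was at -0.00670 after TPM rescaling and -0.0248 with library weights, and -0.0170 to 0.0705 when 1 library was left out. NOP56 was at 0.0103 with median-ratio scaling, 0.00362 after quantile normalization, 0.00681 with library weights, 0.00305 with voom and 0.00970 without the length trend, and -0.0133 to 0.00984 when 1 library was left out. NPM1 was at 0.0111 with median-ratio scaling, 0.00761 with library weights and 0.00374 with voom, and -0.0297 to 0.0290 when 1 library was left out. The cause of these changes was not tested. The least covered tested member and library had 289 reads, for UTP15 in overexpression replicate 2. Reads per library were 56002 to 62734 for NPM1, 8400 to 9642 for NOP56, 1616 to 1896 for UTP4 and 936 to 1137 for NIP7. The part of counting error in the changes of these genes was not tested.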

Other observations

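Genes for the proteins of the finished ribosome were set beside those for the factors that build it. Of 82 tested cytosolic ribosomal protein genes, taken by symbol after the data were seen, 1 fell and 1 rose, and the median log2 change was 0.16. Across all tested genes 10.1% fell and 8.18% rose. Of the 82 genes, 73 had a log2 change above 0 and 9 below. Overexpression libraries lay wholly above the controls for 10 of them and wholly below for 2, against 17.8% and 22.2% of all tested genes. The summed share of reads of the ribosomal protein genes was 8.76% to 9.99% in controls against 9.83% to 11.1% under overexpression, and these ranges overlapped. The difference from the ribosome biogenesis genes was not tested.

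MYC, whose product is known to activate many ribosome biogenesis genes, was at 77.7, 75.4 and 76.6 FPKM in controls and 70.2, 67.6 and 77.4 FPKM with overexpression. The groups overlapped, with a mean of 93.7% of control and a 95% interval of the log2 change of -0.231 to 0.0419 (limma adjusted p = 0.296). MYC was named after its values were seen.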
